A study of Danio rerio with 3 samples.

Results

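The transcripts of zebrafish larvae labelled serpini1 knockout were compared with those of wild-type larvae, each measured in 1 library. Genes entered the comparison when they reached at least 1 FPKM (fragments per kilobase of transcript, scaled to the number of mapped fragments) in either library, which left 18663 of the 24555 genes in the tables. Differences are given as the log2 ratio of FPKM + 1, knockout over control. A gene was past the size rule when that value was at least 1 in absolute size, a 2-fold difference of FPKM + 1. Folds printed for single genes are plain ratios of FPKM. A gene printed at 2-fold or more can therefore fall short of the rule. The 2 libraries are part of a series of 3, and the transgenic library of that series is given beside them as a further level.

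All larvae were of the AB strain, were collected whole at 7 days post fertilization (dpf) and had been bathed in 40 µg/mL doxycycline from 3 to 7 dpf, controls included. The control larvae were wild type. The knockout larvae carried serpini1-/- by their title, while their genotype label reads Tg (serpini1-/-), which is how a transgene is written, and the sources used here do not give the kind of mutation. The transgenic larvae carried huc:teton:gal4; tre:serpini1:mkate2, in which the neuronal huC promoter drives a doxycycline-dependent activator and the responder makes serpini1 with a red fluorescent protein. RNA of 30 larvae was pooled for each library, so every value below is 1 measurement of 1 pool. No difference has a replicate check or a standard error, no p-value was computed here, and all are described by their size alone. The authors' deposited p-values rest on the same 1 library a group. A whole larva mixes all its tissues, so fewer cells of a type and less RNA per cell cannot be told apart.

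Serpini1 encodes neuroserpin, a secreted inhibitor of serine proteases that is made mostly by neurons. It traps tissue-type plasminogen activator, the protease that turns plasminogen into plasmin, and the trapped complex is cleared by receptors of the low-density lipoprotein receptor family. Point mutations of the human gene that make the protein polymerise in the endoplasmic reticulum cause a familial dementia with inclusion bodies.

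Read numbers worked back from the authors' deposited p-values put the control library at about 7740000 fragments, the knockout at 7760000 and the transgenic at 7980000. The interval beside a fold is a 95% Clopper-Pearson interval built on fragment numbers derived from those depths. Such intervals hold counting error alone, as copies made by PCR are counted as if each were a molecule, and they leave out how pools of animals vary. The whole-larva label was checked with 30 markers of 16 tissues. All 16 tissues had a marker at 1 FPKM or more in both libraries. The markers ranged from 3.78 to 2749 FPKM in the control and from 1.73 to 2603 FPKM in the knockout.

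Serpini1 itself was measured first. It stood at 20.04 FPKM in the control library, at 8.05 FPKM in the knockout and at 288 FPKM in the transgenic library. The knockout library was the lowest of the 3, and its level was 40.2% of control, a 2.49-fold difference (2.03 to 3.08). About 129 fragments of the knockout library were assigned to the gene, against 321 in the control. The direction follows the label, and transcript of the gene was still measured in the knockout library. A level of the whole gene does not show which exons the remaining fragments cover or whether protein is made from them.

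The partners of neuroserpin in plasminogen activation stood close to control. Of 17 genes compared in that list, 6 had a log2 ratio above 0 and 11 below, where 44.9% of all genes compared lay above 0 and 54.4% below. Serpini1 was the 1 member past the rule, and the median was -0.04, against -0.03 over all genes. Plat, the tissue-type plasminogen activator, stood at 1.66 and 1.52 FPKM in control and knockout. The plasminogen gene plg stood at 41.0 and 39.3 FPKM. Both genes were near control. Serpine2, a protease inhibitor of the nervous system, stood at 18.8 and 18.4 FPKM in control and knockout. Among the cell-surface partners, the plasminogen receptor gene plgrkt was 1.67-fold lower in the knockout (1.22 to 2.28) and s100a10a, which docks plasminogen with annexin A2, was 1.29-fold lower (1.19 to 1.39).

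Other serpins and the clearance receptors held few large differences. Of 15 other serpins, 6 lay above 0 and 8 below, and none was past the rule. Serpinb14 stood at 31.3 and 18.6 FPKM in control and knockout, and serpina10a, an inhibitor of coagulation proteases, at 55.1 and 33.4. The antithrombin gene serpinc1 stood at 23.04 and 24.5 FPKM and serpine2 is given above, so the family did not move as 1 block. In the low-density lipoprotein receptor family, 15 of 22 members lay below 0 and ldlrb was past the rule, at 6.80 FPKM in control, 2.65 in the knockout and 8.21 in the transgenic library. Its paralog ldlra stood at 17.8 and 16.5 FPKM. The receptors known to take up protease and serpin complexes were near control, with lrp1aa at 14.38 and 14.16 FPKM and vldlr at 13.1 and 13.6. Mylipa and mylipb, which encode ubiquitin ligases for these receptors, were 1.43-fold (1.27 to 1.604) and 1.54-fold lower (1.28 to 1.86).

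Proteases of the matrix were mostly near control as well. Of 20 metalloproteinases and their inhibitors, 14 lay below 0 and the median was -0.16, with no member past the rule. The gelatinase gene mmp9 stood at 5.16 FPKM in control, 3.21 in the knockout and 124 in the transgenic library. Of 27 ADAM and ADAMTS proteases 16 lay below 0, and adam8b, a membrane protease of leukocytes and osteoclasts in mammals, was the 1 member past the rule, 3.42-fold lower (2.16 to 5.56).

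Across the whole table most genes were close to control. The counts and shares here are on the scale of FPKM + 1. Of the 18663 genes, 149 (0.798%) were higher by 2-fold or more in the knockout library. Another 124 (0.664%) were lower by as much, together 273 or 1.46%. The median log2 ratio was -0.03, the middle 50% of genes lay between -0.21 and 0.16, and 92.1% differed by less than 1.5-fold. At least a 4-fold difference was reached upward by 9 genes and downward by 11. A further 217 genes at 1 FPKM or more in control had no knockout value in the tables and were not compared, because the table of all libraries holds no knockout value under 0.58 FPKM. With those genes set at that bound, 139 genes were lower past the rule instead of 124. The bound is the highest value a missing gene could have, so 139 is a minimum and the true number is unknown. The balance of the sides depended on the floor, with 58 higher and 69 lower among genes at 5 FPKM or more.

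**Figure D1:**
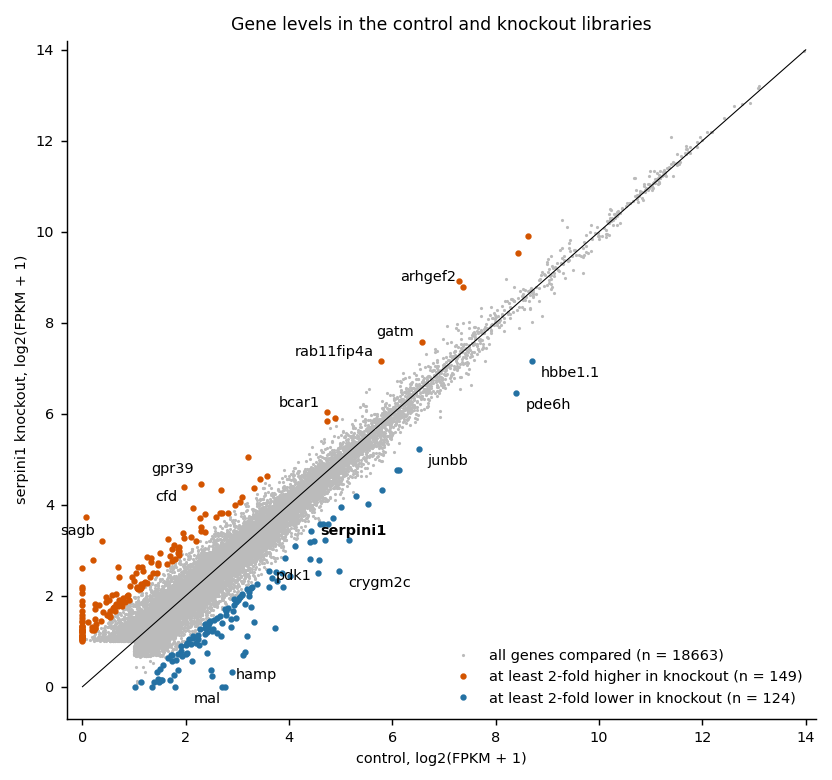
Level of each of the 18663 genes in the control library (x axis) and the knockout library (y axis), both as log2(FPKM + 1), with the line of equal level. The 149 genes that passed the rule upward are orange and the 124 that passed it downward are blue, most of them at the low end of both axes.

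The genes past the rule were short. Those on the higher side were low in control and those on the lower side low in the knockout. The median control level was 0.76 FPKM for the higher and 5.8 FPKM for the lower genes, against 5.43 for all. In the knockout these medians were 3.52, 1.62 and 5.29 FPKM. A choice by the ratio itself makes the higher genes low in control and the lower genes low in the knockout. Genes under 5 FPKM in both libraries were 61.1% of the higher, 44.4% of the lower and 43.9% of all. Genes with a knockout value under 0.58 FPKM were compared only where the authors' contrast listed them. The sides therefore cannot be compared by these shares. Of genes with a mean under 5 FPKM, 112 were higher and 78 lower, 2.15% of 8851. The share was 0.890% of 7082 genes from 5 to 20 FPKM, 0.603% of 2155 from 20 to 100 and 1.22% of 575 at 100 or more. The median length was 1327 bases for the higher and 1409 bases for the lower genes, against 2376 bases for all genes compared. Transcripts under 1000 bases made up 31.5% of the higher and 29.8% of the lower genes, against 8.16% overall. Genes marked as protein-coding in the RefSeq annotation were 79.9% of the higher, 79.0% of the lower and 96.7% of all. Genes absent from that annotation count among the rest, so these shares do not measure non-coding genes. Short genes of low level carry few fragments, and the part of counting error in these shares was not tested. The authors' deposited table lists 266 genes for this contrast, 115 higher and 151 lower, of which 162 are also past the size rule used here, or 60.9% of theirs and 59.3% of these.

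Among genes with a name and at least 5 FPKM in either library, sagb led the higher side. This photoreceptor arrestin stood at 0.30, 8.25 and 3.88 FPKM in control, knockout and transgenic larvae. Only 2 control fragments lie behind that value, so its fold has an interval from 6.69 to 216. The floor fixed the direction of sagb, as its control value was under 1 FPKM. The genes with the deepest counts on this side were arhgef2, an exchange factor bound to microtubules, rab11fip4a, an effector of recycling endosomes, and bcar1, a scaffold of focal adhesions. Arhgef2 stood at 165 FPKM in control, 443 in the knockout and 153 in the transgenic library, a 2.69-fold difference of knockout over control (2.59 to 2.80). Rab11fip4a stood at 53.9, 142 and 84.7 FPKM, and bcar1 at 25.6, 64.3 and 43.2 FPKM. For arhgef2 the knockout library stood apart from the other 2, which lay close together. Metabolic genes on this side were fads2, which desaturates polyunsaturated fatty acids, 3.11-fold higher (2.25 to 4.31), and dio1, which converts thyroid hormone, 2.97-fold higher (1.95 to 4.61). Slc34a2b, a phosphate importer, stood at 2.87, 9.46 and 3.39 FPKM in control, knockout and transgenic larvae. Mgst1.1, a membrane glutathione transferase, stood at 2.24, 6.29 and 5.13 FPKM. Among receptors and cell-surface genes, the zinc receptor gene gpr39 stood at 3.89, 20.8 and 6.44 FPKM and thy1, a glycoprotein of the cell surface, at 3.41, 14.22 and 19.4. The augurin gene ecrg4a stood at 5.39, 18.9 and 13.3 FPKM. The chemokine gene ccl33.3 stood at 2.43, 7.63 and 8.94 FPKM, the immune ligand gene hhla2b.2 at 2.32, 7.12 and 3.28, and the small genes cmc4 and stra13 at 2.13, 8.51 and 0.81 and at 1.38, 6.19 and 7.88. Most of these rest on few fragments, from 4 for stra13 to 82 for gpr39 in the control library.

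On the lower side, hamp (hepcidin, the liver hormone that closes iron export) stood at 5.78 FPKM in control, was listed at 0 in the knockout and stood at 30.7 in the transgenic library. Since an FPKM of 0 may come from an estimate that failed, no fold is given. The myelin proteolipid gene mal stood at 5.53, 0 and 4.85 FPKM, and the cohesin gene smc1a had the reverse order, at 0, 5.08 and 1.45 FPKM. Hamp, mal and smc1a were the 3 genes listed at 0 in 1 library and at 5 FPKM or more in the other. A knockout value of 0 could be seen only for genes in the authors' contrast, so more such genes may exist. Pdk1, the kinase that switches off pyruvate dehydrogenase, stood at 22.97 FPKM in control, 5.87 in the knockout and 6.96 in the transgenic library, 3.91-fold lower in the knockout (3.396 to 4.51). Setd3, which methylates actin on histidine, stood at 20.04, 5.99 and 13.3 FPKM. Gch1, the enzyme that starts tetrahydrobiopterin synthesis, was 3.18-fold lower (1.996 to 5.395), while its paralog gch2, the pigment-cell form, was 2.19-fold higher (1.80 to 2.67). The transgenic library had gch1 at 5.01 FPKM and gch2 at 24.99, on the same side of the control as the knockout for each. Tmprss3a, a membrane serine protease, stood at 7.81, 2.54 and 2.99 FPKM, and rln3a, a neuropeptide of the relaxin family, at 13.5, 4.62 and 17.2. The helicase gene ddx41 stood at 6.34, 1.80 and 0.91 FPKM. Rgs2, a brake on G protein signalling, stood at 22.6, 4.64 and 45.8 FPKM, so that the knockout was the lowest and the transgenic the highest library.

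**Figure D2:**
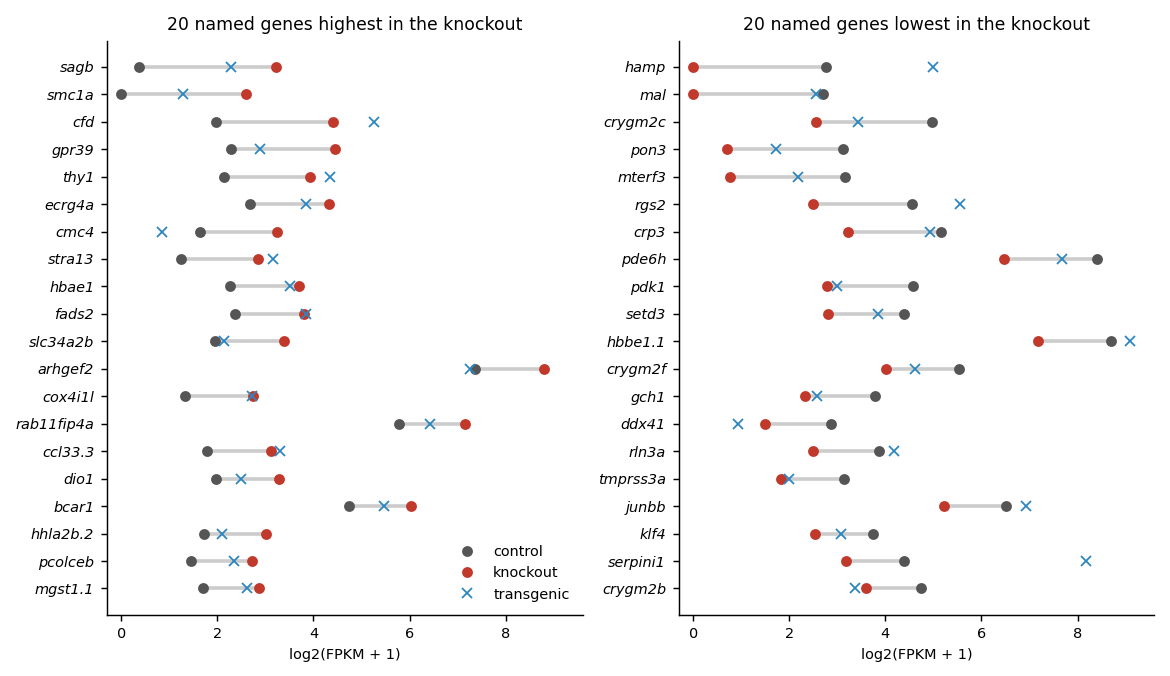
Levels as log2(FPKM + 1) (x axis) of the 20 named genes with the highest and the 20 with the lowest ratio, in the control (grey), knockout (red) and transgenic library (blue cross). Arhgef2 has the highest knockout level on the left, and serpini1 is in the list on the right with its transgenic level far to the right of both other points.

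At 100 FPKM or more in either library, the largest differences also included 3 higher genes without a description here and 1 lower gene just short of the rule. An unnamed gene (gene identifier 110438040) stood at 156 FPKM in control, 480 in the knockout and 162 in the transgenic library. The gene zgc:136930 stood at 393, 967 and 388 FPKM, and si:dkey-183i3.5 at 345, 738 and 313 FPKM. In all 3 the knockout library was the high one and the other libraries lay close together. The lower gene, zgc:92745, listed here with the digestive proteases, stood at 120.4, 59.9 and 22.97 FPKM, the knockout lying between the other 2 libraries.

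The functional groups were 77 gene lists, of which 74 had at least 10 members compared. Their medians were small. Of the 74, 48 lay within 0.1 of 0 on the log2 scale and 7 were at least 0.25 in size. Those above 0 were bone and mineral genes (0.31), genes of mitosis (0.29, but 0.15 at a floor of 5 FPKM and 0.14 with a pseudocount of 5) and collagens (0.26). Those below 0 were the proteasome (-0.39), neutrophil markers (-0.38), inflammation and acute phase genes (-0.35) and macrophage markers (-0.27). Of the 2798 compared genes in any list, 59 or 2.11% were past the 2-fold rule, where 1.46% of all genes were. Counts above and below 0 in the lists that follow stand beside 44.9% of all genes compared above 0 and 54.4% below. In many lists a few members were under 1 FPKM in 1 library, and the floor fixed their direction.

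**Figure D3:**
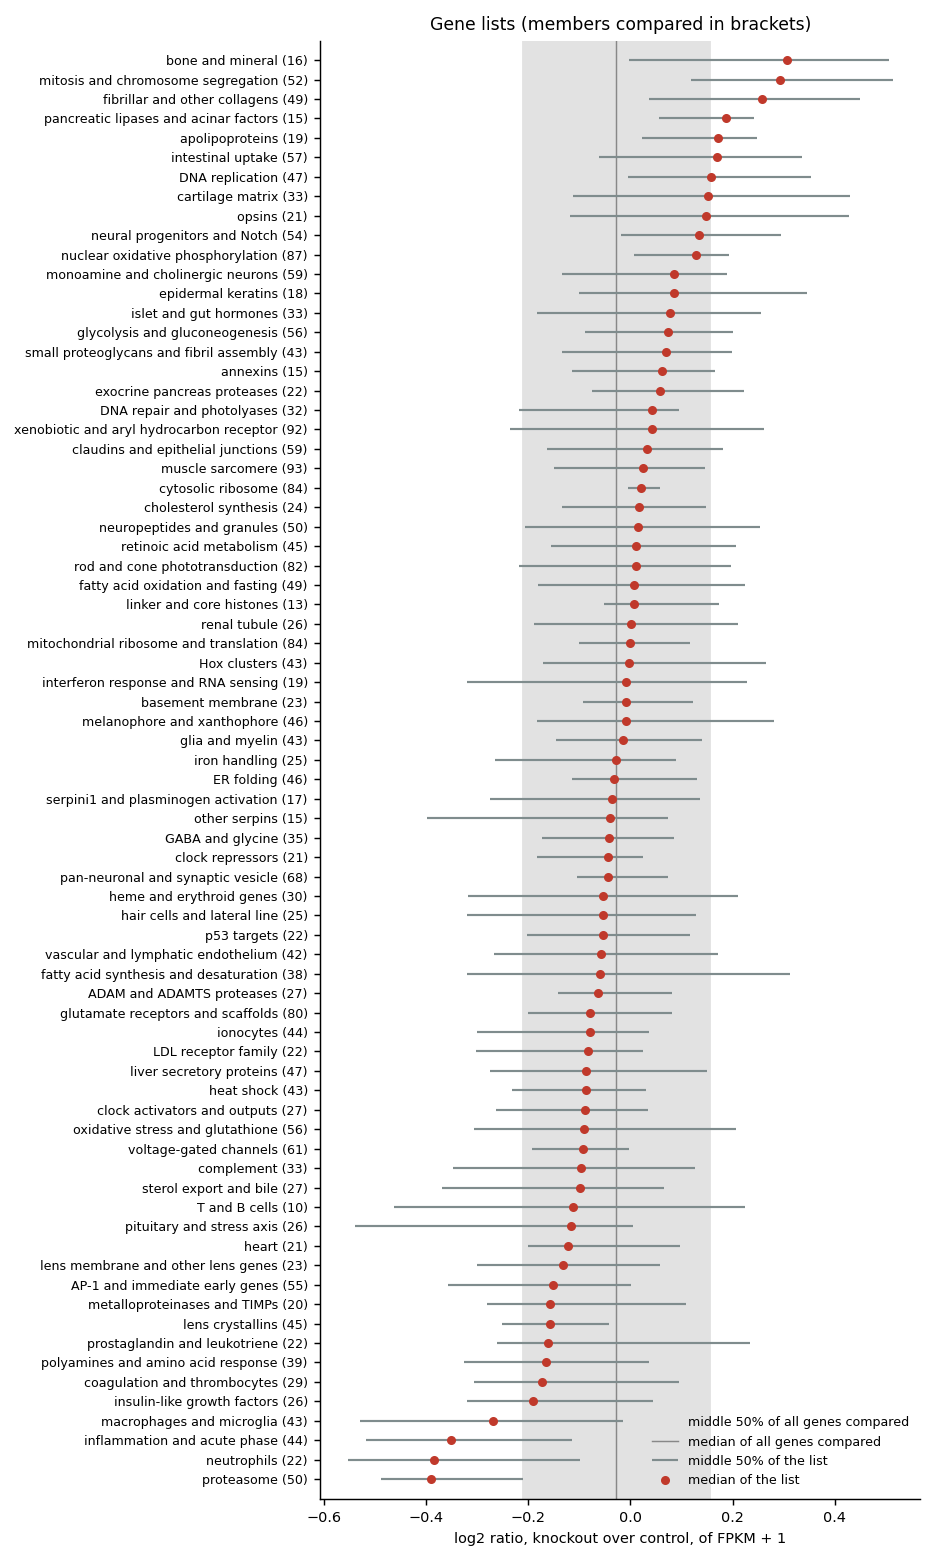
Median log2 ratio, knockout over control (red point), and middle 50% of members (line) of the 74 lists with at least 10 members compared, beside the median and the middle 50% of all genes (grey band). The proteasome lies lowest at -0.39 and the bone and mineral list highest at 0.31.

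The proteasome, the barrel-shaped complex that degrades ubiquitin-tagged proteins, had the lowest median of the 74 lists with at least 10 members compared. Of 50 genes compared, 45 lay below 0, the middle 50% ranged from -0.49 to -0.21, and none was past the 2-fold rule in either direction. The summed level of the list was 1822 FPKM in control, 1378 in the knockout and 1873 in the transgenic library. The knockout library was thus the low one and the other libraries were close together. The structural parts were lower throughout. All 9 genes of the alpha ring lay below 0 (median -0.40), as did all 7 of the beta ring that holds the proteolytic sites (-0.41). The 19S cap, which unfolds substrates and removes ubiquitin, had all 7 ATPase genes (-0.42) and all 13 non-ATPase genes (-0.43) below 0. All 5 activator genes were below 0 as well (-0.51). The 9 genes for assembly chaperones and the inhibitor were divided, with 5 above and 4 below (0.04).

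Single subunits show the size of this difference. Psma5 of the alpha ring stood at 43.5 FPKM in control, 26.9 in the knockout and 41.3 in the transgenic library, 1.62-fold lower in the knockout (1.36 to 1.93). In the beta ring psmb4 stood at 93.3, 66.5 and 93.8 FPKM. The cap ATPase gene psmc1b stood at 34, 21.9 and 32.5 FPKM. For these 3 genes the control and transgenic libraries nearly coincide and the knockout lies below both. Psmd13 of the cap was 1.64-fold lower (1.42 to 1.90), and psmd14, the subunit that cuts ubiquitin chains from the substrate, stood at 45.5, 32.1 and 41.1 FPKM. Psmd11b and psme4a were low in both the knockout and the transgenic library, psmd11b at 12.6, 6.14 and 6.77 FPKM and psme4a at 23.5, 13.8 and 4.02 FPKM. The proteolytic subunit gene psmb5 was nearest to control within its ring, at 32.9 and 31.2 FPKM. The assembly chaperone gene psmd9 was the exception in size, 1.75-fold higher (1.16 to 2.60). Genes for protein folding in the endoplasmic reticulum (46 genes, median -0.03) and for heat shock proteins (43 genes, median -0.09) had medians near 0, and the chaperone gene hspa5 stood at 50.9 and 50.1 FPKM.

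**Figure D4:**
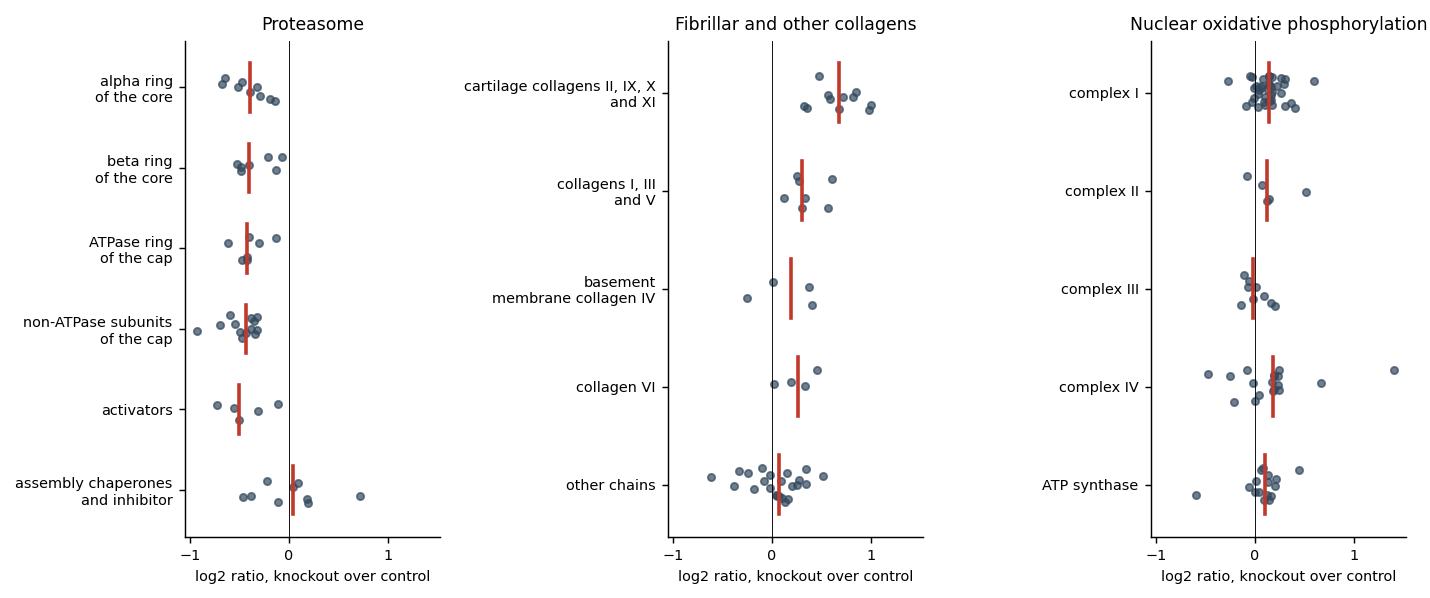
Log2 ratio, knockout over control (x axis), of each gene (point) with the median (red bar) in the parts of the proteasome, the collagens and the nuclear-encoded respiratory chain. All genes of the proteasome rings, cap and activators lie left of 0. All 11 cartilage collagen genes lie right of 0, where the floor fixed 1 of them.

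Collagen genes were higher in the knockout library, most of all those of cartilage. Of 49 collagen genes 39 lay above 0 and 1, col9a3, was past the rule. The chains of collagens II, IX, X and XI, which are collagens of cartilage, were above 0 in 11 of 11 genes, with a median of 0.68. Of the 11, 1 was under 1 FPKM in control and so had to lie above 0. Their summed level was 494 FPKM in control, 773 in the knockout and 755 in the transgenic library. Col2a1a, the main chain of cartilage, stood at 151 FPKM in control, 249.7 in the knockout and 249.6 in the transgenic library. Col9a3 stood at 28.7, 58.6 and 61.3 FPKM, and col11a2 at 13.99, 26.1 and 22.0. In each of these genes the control library was the low one of the 3. Collagens I, III and V of bone and skin were above 0 in 7 of 7 genes with a smaller median of 0.30, and col1a2 stood at 190.3 and 240.4 FPKM. Collagen VI had 4 of 4 above 0 (0.26), basement membrane collagen IV 3 of 4 (0.19) and the remaining chains 14 of 23 (0.07).

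Other matrix genes were divided. Of 33 further cartilage genes 22 lay above 0, with a median of 0.15. Matn1, a filament protein of cartilage, stood at 42.3, 72.8 and 74.0 FPKM, while prg4b, a lubricant of joints, was 1.88-fold lower in the knockout (1.51 to 2.33) and matn3b 1.64-fold lower (1.31 to 2.06). Bone and mineral genes had 12 of 16 above 0 and none past the rule. Of the 16, 2 were under 1 FPKM in control and 1 in the knockout, which fixed their direction. With the floor in the transgenic library, 10 of 14 lay above 0 (median 0.28). Ifitm5, a membrane protein of osteoblasts, stood at 2.66, 5.97 and 3.82 FPKM, and sparc, a calcium-binding matrix protein, at 290.2, 353 and 377. The list of small proteoglycans and fibril assembly had 25 of 43 above 0 and 2 past the rule, both higher. They were lum (lumican), which spaces collagen fibrils, at 9.02, 19.7 and 16.8 FPKM, and pcolceb, which helps to trim procollagen, at 1.74, 5.61 and 4.07. Basement membrane genes (23 genes, median -0.01, above 0 when the knockout values were centred) stayed near control, apart from the laminin chain lamb2, 1.502-fold higher (1.34 to 1.69). Sox9a, the regulator of cartilage identity, stood at 19.9 and 20.2 FPKM.

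Genes of cell division were mostly above control at low levels, by an amount that depended on the floor. In the mitosis list 42 of 52 had ratios above 0, and 4 of them passed the rule, all higher. Aurkb, a kinase of chromosome segregation, stood at 2.63 FPKM in control, 6.45 in the knockout and 10.5 in the transgenic library. Its partner cdca8 stood at 1.07, 3.55 and 5.32 FPKM, and racgap1, which organises the central spindle, at 0.55, 2.15 and 1.79. For aurkb and cdca8 the order was control, knockout, transgenic. Of the 52, 9 had under 1 FPKM in control and were compared because the knockout reached 1, so their ratios had to lie above 0. Racgap1 and smc1a (0 in control), both past the rule, were among these 9. With the floor set instead in the transgenic library, 46 of 55 lay above 0 and the median was 0.28, while 2 more members had no knockout value. With a floor of 5 FPKM in either library the median was 0.15. DNA replication genes had 31 of 47 above 0 (median 0.16), of which 7 were under 1 FPKM in control and so had to lie above 0. With the floor in the transgenic library, 33 of 50 lay above 0, and 3 more members had no knockout value. The tables hold 2 entries named rrm2, a subunit of the enzyme that makes deoxynucleotides. The more abundant entry stood at 6.05, 5.83 and 13.8 FPKM, and the other, at 0.18, 2.55 and 2.64, was the 1 member past the rule, in a direction that the floor fixed. Whether fragments were split between these entries was not tested. The replication clamp gene pcna stood at 34.2, 36.5 and 65.2 FPKM, much nearer to control than to the transgenic library. Genes of the p53 response (22 genes, median -0.05) and of DNA repair (32 genes, median 0.04) lay near 0.

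Genes of inflammation and of the blood cells that carry it were lower in the knockout library. In the inflammation and acute phase list 35 of 44 lay below 0 and 5 were past the rule, all lower. Of the 44, 5 had under 1 FPKM in the knockout and so had to lie below 0, hamp and irg1l among them. With the floor set in the transgenic library, 35 of 47 lay below 0 (median -0.34), and 10 more members had no knockout value at that floor. Of all 64 listed genes 17 had no knockout value. Crp3, a C-reactive protein of the liver, stood at 35.0 FPKM in control, 8.30 in the knockout and 29.5 in the transgenic library. Socs1a, a feedback inhibitor of cytokine signalling, stood at 31.1, 14.4 and 26.7 FPKM, and nfkbiaa, the inhibitor that NF-kB induces, at 53.9, 30.2 and 67.9. In these 3 genes the knockout was the lowest library. Irg1l, which makes itaconate, stood at 2.3, 0.61 and 24.2 FPKM and hmox1a, which breaks down heme, at 8.06, 3.43 and 7.12. Stat3, which carries interleukin 6 signals, was at 13.4, 9.14 and 15.6 FPKM, and cebpb, an acute phase transcription factor, at 115, 89.4 and 227.

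Markers of phagocytes moved with these genes, and their part in the result was not tested. Of 43 macrophage and microglia markers 33 lay below 0, and of 22 neutrophil markers 19 did. Of these, 1 macrophage and 2 neutrophil markers were under 1 FPKM in the knockout and so had to lie below 0. The cathepsin gene ctss2.1 was the 1 macrophage marker past the rule, at 8.61, 3.50 and 16.2 FPKM in control, knockout and transgenic larvae. The defining macrophage gene mpeg1.1 stood at 3.97 FPKM in control, 1.96 in the knockout and 7.78 in the transgenic library. The receptor gene csf1ra stood at 5.80, 3.56 and 7.59 FPKM, and marco, a scavenger receptor, at 6.57, 3.50 and 17.1. Among neutrophil genes mpx stood at 5.31, 2.67 and 9.27 FPKM, srgn at 16.8, 8.65 and 39.7, and the lysozyme gene lyz at 36.4, 34.7 and 60.0. None of these markers was at 0 in any library. The summed levels of both lists went the other way, from 438 FPKM in control to 480 in the knockout for macrophages and from 2589 to 2730 for neutrophils. Those sums are carried by apoc1l (164 and 256 FPKM) in the first list and by cpa5 and pfn1 in the second, genes that other tissues express strongly. The compared genes of T and B cells (10 compared, 5 above and 5 below) and of the interferon response (19 compared, 9 above and 10 below) were evenly divided. Without a knockout value were 12 of 24 T and B cell genes and 30 of 51 interferon genes, so these divisions cover only part of each list.

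The liver's secreted defence proteins were divided. Of 33 complement genes 20 lay below 0, 1 was past the rule on the lower side and 1 on the higher. The higher one, cfd, the protease that starts the alternative pathway, stood at 2.91 FPKM in control, 20.1 in the knockout and 37.6 in the transgenic library. The lower one, si:dkey-8k3.2, stood at 6.36, 1.47 and 22.97 FPKM. C7b of the membrane attack complex, at 6.98, 3.48 and 9.87, fell short of the rule. Coagulation genes had 18 of 29 below 0 and none past the rule (median -0.17), with f3a, the tissue factor that starts clotting, at 6.56, 3.48 and 5.35 FPKM. The fibrinogen genes were near control, fga at 62.4 and 55.2 FPKM and fgb at 60.6 and 66.2. Of 47 liver secretory genes 27 lay below 0 (median -0.09). Tfa (transferrin) was on the higher side, at 292, 501 and 792 FPKM, and pon3, a paraoxonase, was the member past the rule, at 7.63, 0.63 and 2.29. Pon3 was under 1 FPKM in the knockout, so the floor fixed its direction. Apolipoproteins had 14 of 19 above 0 (median 0.17), with apoea at 149 and 235 FPKM and apoeb, the form of microglia and yolk, at 403 and 317.

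Several genes of sterol export were lower, while those of sterol synthesis were evenly divided. Of 27 genes of sterol export and bile 18 lay below 0 and none was past the rule (median -0.10). The paired transporters abcg5 and abcg8, which pump sterols into gut and bile, stood at 10.8, 5.03 and 6.21 FPKM and at 6.88, 3.03 and 4.15. Abca1a, which loads cholesterol on apolipoprotein A-I, stood at 54.4, 30.0 and 35.1 FPKM and abcg1 at 14.1, 8.75 and 6.12. Srebf1, a regulator of lipid synthesis, stood at 46.2, 25.1 and 20.3 FPKM and its target fasn, the fatty acid synthase, at 25.8, 16.1 and 17.3. In all 6 genes the knockout and transgenic libraries were both below control. The exceptions on the higher side were fgf19, the gut hormone that curbs bile acid synthesis, 2.37-fold (1.33 to 4.66), and the sterol importer npc1l1, 1.92-fold (1.58 to 2.33). Of the cholesterol synthesis genes 12 of 24 lay above 0, and hmgcra stood at 5.64, 2.90 and 8.43 FPKM. In the list of fatty acid synthesis and desaturation 22 of 38 lay below 0, scd (1.76 and 0.13 FPKM) and elovl1a (8.33 and 3.25) were lower past the rule and fads2 higher. Scd was under 1 FPKM in the knockout, so the floor fixed its direction.

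Fuel genes outside this set showed single large differences without a shift of the list. Fatty acid oxidation and fasting genes had 25 of 49 above 0, with pdk1 past the rule on the lower side and angptl4, an inhibitor of lipoprotein lipase, on the higher side at 9.76, 22.6 and 36.5 FPKM. Ucp1, a mitochondrial carrier, stood at 829, 544 and 338 FPKM. Glycolysis and gluconeogenesis genes had 35 of 56 above 0 (median 0.07), with ldhba, a lactate dehydrogenase, at 209 and 320 FPKM and pkmb, a pyruvate kinase, at 112 and 171. Digestive genes were slightly higher. Of 57 genes of intestinal uptake 39 lay above 0 (median 0.17), of 15 pancreatic lipases and acinar factors 12 did (0.19), and of 22 pancreatic proteases 14 did (0.06), none of them past the rule. Spink4, a protease inhibitor of secretory cells, stood at 99.9, 157 and 91.6 FPKM, and dpp4, a peptidase of the brush border, at 10.13, 16.4 and 16.7.

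Nuclear genes of the respiratory chain leaned upward by a small amount. Of 87 subunit genes 66 lay above 0, 1 was past the rule, and the median was 0.13. Complex I had 32 of 39 above 0 (median 0.14), complex IV 13 of 18 (0.19), ATP synthase 13 of 16 (0.10), complex II 4 of 5 (0.12) and complex III 4 of 9 (-0.02). The summed level was 10506 FPKM in control, 11397 in the knockout and 13372 in the transgenic library. Ndufb7 of complex I stood at 90.1, 137 and 177 FPKM, and cox4i1l, a form of a complex IV subunit, was the member past the rule at 1.51, 5.65 and 5.62. Cytosolic ribosomal protein genes were the tightest list, with 58 of 84 above 0, a median of 0.02 and a middle 50% from -0.01 to 0.06. Genes of the mitochondrial ribosome were evenly divided (40 of 84 above 0), and mterf3, a mitochondrial termination factor, was past the rule at 7.90, 0.69 and 3.52 FPKM. The floor fixed the direction of mterf3.

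Genes of the hormonal stress axis leaned lower. Of 26 genes of the pituitary and stress axis 18 lay below 0 and none was past the rule (median -0.12, middle 50% from -0.54 to 0.00). Among all genes compared 54.4% lay below 0, and their median was -0.03. Fkbp5, a chaperone of the glucocorticoid receptor that the receptor itself induces, stood at 184 FPKM in control, 97.8 in the knockout and 203 in the transgenic library. Klf9, another gene that glucocorticoids induce, stood at 220.0, 142 and 176 FPKM, and tat, a liver enzyme of tyrosine breakdown, at 121, 65.9 and 77.4. Hsd11b2, which inactivates cortisol, stood at 16.9, 9.42 and 13.2 FPKM, and star, which feeds cholesterol into steroid synthesis, at 9.13, 5.53 and 9.12. In each of these 5 genes the knockout was the lowest library. The receptor gene nr3c1 was near control at 15.6 and 17.4 FPKM, and pomca, the precursor of the pituitary stress hormone, stood at 6.46 and 7.50. The growth hormone gene gh1 stood at 19.3, 12.01 and 15.4 FPKM, its receptor ghrb at 22.9, 11.7 and 15.97, and socs2, a feedback inhibitor of that receptor, at 24.3, 10.9 and 11.9. The list of insulin-like growth factors had 18 of 26 below 0 and none past the rule (median -0.19).

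Immediate early genes were lower only in part. Of 55 members 41 lay below 0 and 2 were past the rule, both lower (median -0.15). Junbb stood at 89.97 FPKM in control, 36.4 in the knockout and 121 in the transgenic library, klf4 at 12.4, 4.77 and 7.40, and atf3, a stress transcription factor, at 10.06, 5.56 and 22.6. Fosab and egr1, the genes most used as marks of recent neuronal activity, were near control at 135 and 129 FPKM and at 71.0 and 65.4. The neuronal npas4a stood at 37.9 and 44.2 FPKM. Odc1, the first enzyme of polyamine synthesis, stood at 27.7, 12.1 and 96.8 FPKM, and 27 of 39 genes of polyamines and the amino acid response lay below 0 (median -0.17). Of the 39, 3 were under 1 FPKM in the knockout and so had to lie below 0. Clock repressors had 9 of 21 above 0, with per2 at 40.7, 34.9 and 2.31 FPKM, a difference that was large in the transgenic and small in the knockout library. Nfil3-6, a repressor paralog, stood at 11.6, 5.62 and 8.45 FPKM.

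The 4 lists of neurons described first, for the tissue where serpini1 is mostly made, had medians within 0.1 of 0. Of 68 pan-neuronal and synaptic vesicle genes 42 lay below 0, none was past the rule, and the middle 50% ran from -0.10 to 0.07. The neuronal RNA-binding gene elavl3 stood at 50.2 FPKM in control, 44.5 in the knockout and 37.8 in the transgenic library, and the fusion protein gene snap25a at 129.4, 126.9 and 119.5. Glutamate receptors and scaffolds had 52 of 80 below 0 (median -0.08), with grin1b, a subunit of NMDA receptors, at 51.2, 40.8 and 38.4 FPKM. Voltage-gated channels had 46 of 61 below 0 (median -0.09), and kcnc3b, a potassium channel of fast-firing neurons, stood at 5.60, 2.73 and 2.31. Of the 61, 3 were under 1 FPKM in the knockout and so had to lie below 0. Another 10 channel genes had no knockout value. GABA and glycine genes had 21 of 35 below 0 (median -0.04), with gad1b at 59.6 and 55.5 FPKM. In these 4 lists no gene was past the 2-fold rule in either direction. Outside them, the neuropeptide gene rln3a was lower past the rule, as was LOC100333913, annotated as a GABA receptor subunit, at 3.85, 1.41 and 0.62 FPKM, and LOC100334082, annotated as like a neurofilament, was higher at 1.12, 5.18 and 8.81 FPKM. These 2 entries are named after their values were seen. On the higher side were alpha-tubulin tuba1a, at 131, 188 and 175 FPKM, and the vesicular glutamate transporter gene slc17a7a, at 7.76, 11.5 and 7.14.

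Transmitter-specific neurons, glia and progenitors also had small medians. Monoamine and cholinergic genes had 32 of 59 above 0 (median 0.09), with th at 3.86 and 3.38 FPKM and slc6a4a, the serotonin transporter, at 10.4 and 12.02. Of the 59, 7 were under 1 FPKM in control and so had to lie above 0. With the floor in the transgenic library, 26 of 50 lay above 0 (median 0.06). Among 50 neuropeptide genes 26 lay above 0, and cart2, an appetite peptide, stood at 8.24, 3.78 and 4.06. Glia and myelin genes had 21 of 43 above 0, with mbpa at 45.0 and 44.5 FPKM and mal as the 1 member past the rule. Mal was listed at 0 in the knockout, so the floor fixed its direction. Neural progenitor and Notch genes had 37 of 54 above 0 (median 0.13), of which 5 were under 1 FPKM in control and so had to lie above 0. Her4.2, a Notch target, was past the rule at 0.88, 3.63 and 1.61 FPKM, in a direction that the floor fixed. Her12, another target, stood at 2.23, 5.14 and 1.74.

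In the eye the median of the opsins lay above 0 and that of the lens genes below 0. Of 21 opsins 13 lay above 0 (median 0.15), and cone opsins were among the higher ones. Opn1sw1 of ultraviolet cones stood at 325 FPKM in control, 442 in the knockout and 486 in the transgenic library, and opn1lw2 of red cones at 210.4, 283 and 360. The rod opsin gene rho was also higher in the knockout, at 533, 711 and 536 FPKM. Of the 21, 3 were under 1 FPKM in control and so had to lie above 0, and 9 further opsins had no knockout value. The other phototransduction genes were evenly divided (42 of 82 above 0), with gnat2 at 134 and 144 FPKM. Their exception was pde6h, the inhibitory subunit of the cone phosphodiesterase, at 337, 87.1 and 205 FPKM, 3.87-fold lower in the knockout (3.44 to 4.36). Lens crystallins had 36 of 45 below 0 and 5 past the rule, all lower (median -0.16). The 5 were gamma-M crystallins, led by crygm2c at 30.3, 4.87 and 9.72 FPKM and crygm2f at 45.3, 15.2 and 23.4. In both genes the control was the highest library. Gamma crystallins share near-identical copies whose fragments can be split between them, so single values are uncertain. Membrane and other genes of the lens had 16 of 23 below 0 (median -0.13), with the water channel gene mipa at 35.1, 24.0 and 27.3 FPKM.

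Skin keratins were higher at the most abundant genes. Of 18 keratins 10 lay above 0 (median 0.09), and the summed level was 13674 FPKM in control, 17446 in the knockout and 11474 in the transgenic library. Cyt1l, a keratin of the outer epidermal layer, stood at 2697, 4333 and 2387 FPKM, cyt1 at 669, 1106 and 620.1, and krtt1c19e, a keratin of basal skin cells, at 620.3, 1219 and 567. The knockout was the highest library in all 3, and the other libraries lay close together. Krt96 was the 1 member past the rule and was lower, at 5.81, 2.27 and 20.9 FPKM. Related keratins share sequence, and the part of shared fragments in these values was not tested. Claudins and epithelial junction genes were evenly divided (31 of 59 above 0).

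Blood pigment genes were lower at the abundant chains. Hbbe1.1 stood at 415 FPKM in control, 143 in the knockout and 543 in the transgenic library, hbae3 at 477, 281 and 656, and hbbe2 at 171, 118 and 233. The summed level of 6 globins was 1072, 557 and 1450 FPKM, with the knockout lowest and the transgenic highest. Hbae1 went the other way from a low level, at 3.81, 12.01 and 10.33 FPKM. Globin genes lie in near-identical copies, so the split between chains is uncertain. Other genes of red cells were divided, with the band 3 anion exchanger slc4a1a at 5.83, 3.97 and 8.62 FPKM, the carbonic anhydrase cahz at 16.2, 12.3 and 23.5, and alas1, an enzyme that starts heme synthesis in many tissues, at 112, 162 and 179.8. Of 30 heme and erythroid genes 16 lay below 0 (median -0.05), and their summed level was 449 FPKM in control and 528 in the knockout. In this list urod, an enzyme of heme synthesis, was past the rule at 4.42, 1.57 and 5.31.

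The list of retinoic acid genes was evenly divided, with 23 of 45 above 0 and a median of 0.01. Its 2 members past the rule and the next in size were all lower. Cyp26a1, the enzyme that clears retinoic acid, stood at 11.2 FPKM in control, 4.83 in the knockout and 8.65 in the transgenic library. Dhrs3a, which turns retinal back to retinol, stood at 14.1, 6.10 and 8.89 FPKM, and crabp2b, a carrier of retinoic acid, at 9.11, 4.16 and 5.12. The knockout was the lowest library in each, and crabp2b was just short of the rule. On the higher side rbp7a, a retinol carrier, stood at 10.99, 18.6 and 7.14 FPKM. The Hox genes of the body axis were divided as well (21 of 43 above 0, median -0.00, above 0 when centred). Of the 43, 6 were under 1 FPKM in control and 1 in the knockout, which fixed their direction. With the floor in the transgenic library, 19 of 40 lay above 0. Hoxc10a was the 1 Hox gene past the rule. It was listed at 0 in control and stood at 1.51 FPKM in the knockout, in a direction that the floor fixed. Pigment cell genes had 23 of 46 above 0, with tyrp1a, a melanin enzyme, past the rule at 5.54, 13.1 and 9.69 FPKM beside gch1 and gch2. Muscle genes had 51 of 93 above 0 (median 0.02), and a myosin heavy chain gene, myhc4, was past the rule at 5.0, 12.4 and 7.35. Xenobiotic genes had 49 of 92 above 0 (median 0.04), with cyp1a, the mark of the aryl hydrocarbon receptor, at 29.6, 33.2 and 85.7. Past the rule were 2 higher members, led by cyp2aa8 at 0.99, 4.01 and 3.31, and 1 lower, cyp1c2 at 2.74, 0.85 and 3.85. The floor fixed the direction of cyp2aa8 and cyp1c2. Genes of oxidative stress and glutathione had 27 of 56 above 0 and 3 past the rule, all lower, among them gss, which makes glutathione, at 4.24, 1.55 and 3.72.

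Genes that lie next to a mutated locus are inherited with it, so the neighbours of serpini1 were described by their order. The order came from a RefSeq table of another assembly than the authors' build and served for order only. None of the 20, 50 or 100 compared genes within 10, 25 or 50 places on either side was past the size rule, where 1.21% of 18077 placed genes were. The nearest neighbours stood close to control, pdcd10a at 23.1 and 21.6 FPKM and golim4a at 22.99 and 23.4. Within 100 places, 2 of 185 genes were past the rule. They were gatm, the first enzyme of creatine synthesis, 79 genes away at 93.7, 191 and 187 FPKM, and zgc:56622, 87 genes away at 2.11 and 5.44 FPKM. Over the 593 other genes of the chromosome 3 were past the rule, or 0.506%. Of the 25 chromosomes 2 had a lower share, and the shares ranged from 0.306% to 2.66%.

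**Figure D5:**
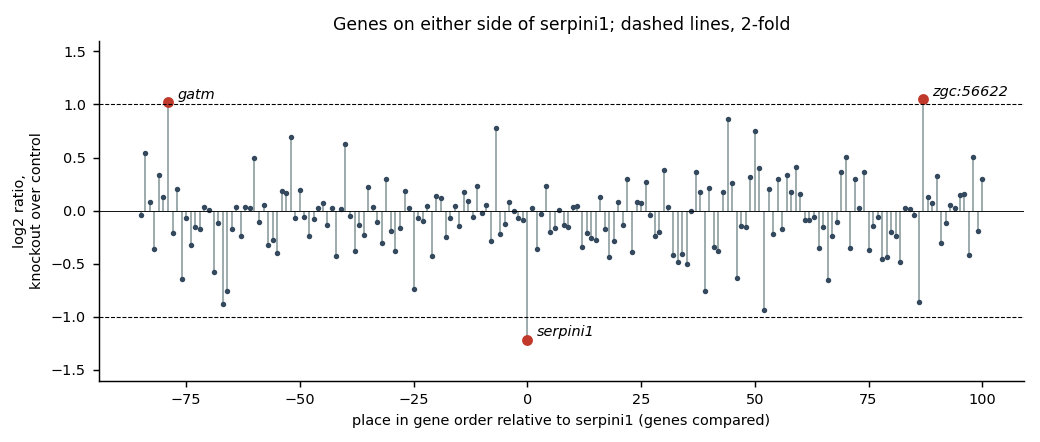
Log2 ratio, knockout over control (y axis), of compared genes by their place in gene order on either side of serpini1 (x axis), with dashed lines at 2-fold. Serpini1 at -1.22 stands alone past the lines within 50 places, and the other red points are gatm and zgc:56622.

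Genes past the rule were gathered in a few places elsewhere. In windows of 25 neighbouring genes, 75.6% held none, 20.4% held 1 and the fullest held 6. The fullest run and the second were picked after their values were seen. The fullest held sagb and alp3, an alkaline phosphatase, on the higher side, alp3 at 5.3, 13.1 and 7.10 FPKM. It held igsf11, an adhesion protein, on the lower side at 1.89, 0.11 and 0.41 FPKM, with LOC794425, si:ch1073-340i21.3 and wu:fb18f06. Wu:fb18f06 was the most abundant of these, at 54.3, 18.9 and 35.2 FPKM. The floor fixed the direction of sagb, igsf11 and LOC794425. The second run held 5 genes, all lower, and 4 of them were the gamma crystallins crygm7, crygm2c, crygmxl1 and crygm2b. Crygm7 was under 1 FPKM in the knockout, so the floor fixed its direction. The fifth, zgc:153846, stood at 69.3, 26.1 and 34.4 FPKM. The neighbour crygm1 was lower without passing the rule, at 7.05, 3.65 and 4.25 FPKM. Tandem copies share sequence, and whether these values are independent was not tested.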

How the data were processed

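RNA of 3 pools of 30 whole larvae was sequenced, 1 library each for control, serpini1 knockout and transgenic larvae. The authors deposited FPKM values per gene for all libraries and, for each contrast with control, a table of FPKM, a log2 fold change and an adjusted p-value (FDR), with gene lengths, per the file headers. The submitters' processing notes name HISAT, StringTie, DESeq2 and GRCz11, with neither version nor role, and no source used here says if counting was stranded. The deposited contrasts themselves carry the label PossionDis_Method, by its name a Poisson method. Genes were joined by identifier. The deposited all-libraries table is ordered by its knockout column and ends in mid-line, so 4816 of 24555 genes have no knockout value. Another 40 knockout values came from the authors' contrast table, where 0 is written as 0.01.

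Read numbers of genes listed at 0 in control were worked back from the authors' deposited p-values. The depth ratio to control was chosen to bring these numbers nearest to whole reads. With that choice, all of the 15 knockout and 596 transgenic genes used came within 0.05 of a whole read, which is no independent check of the depths. Depth then came from the read numbers, the FPKM and the transcript length less 100 bases. Fragments per gene estimated this way gave 95% Clopper-Pearson intervals for folds. The log2 ratio used a pseudocount of 1 FPKM and a floor of 1 FPKM in either library. With 1 library a group no test was made, and no count model was run here.

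Of 2202 gene symbols written in 77 lists, 1923 matched the files' symbols, 149 a RefSeq symbol and 29 a synonym. Lists were also filled by name patterns, and patterns that took in unrelated genes were corrected by name. The comparison and the lists were chosen with earlier results of these data known. Named genes were serpini1, the 20 named genes with the highest and the 20 with the lowest ratio at 5 FPKM or more, the list members past the rule or with the largest ratios (up to 6 a list), the 10 largest at 100 FPKM or more, genes listed at 0 in 1 library and at 5 FPKM or more in the other, and neighbours past the rule. Other members named beside these were chosen after their values were seen. Gene order came from the RefSeq table of GRCz12tu, not the authors' build. Python 3.11.15, pandas 2.3.3, numpy 2.4.6, scipy 1.17.1 and matplotlib 3.10.9 were used, and the computation was tested on simulated data. Alternatives were other pseudocounts and floors, a 1.5-fold rule, centred values, missing values at their bound and other windows of gene order.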

Additional observations from a re-analysis of the deposited data

How the results depend on the processing

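The count of genes past the rule depended on the pseudocount and the floor. With a pseudocount of 0.1, 476 genes were higher and 357 lower. With 0.5 they were 278 and 206, and with 5 they were 16 and 24. At a floor of 5 FPKM they were 58 and 69, and with a 1.5-fold rule 734 and 749. In gene order, 2 genes were past the rule within 100 places of serpini1 and 0 within 25. Without a floor the counts were 149 and 124, and with centred knockout values 166 and 116 (265 of the 273 genes shared). With missing values at their upper bound they were 149 and 139, where 139 is a minimum. With the floor in the transgenic library, an alternative chosen after seeing the data, they were 110 and 104. Genes without a knockout value were left out at that floor too, so it is not free of selection on the knockout level. Centring scaled the knockout values by a factor worth 0.04 on the log2 scale, and lists with medians this close to 0 have no settled direction. Of 585 list medians computed under alternatives 22 changed sign, none of a list with a median of 0.15 or more in size. The mitosis median was 0.14 with a pseudocount of 5 and 0.15 at a floor of 5 FPKM, and the inflammation median -0.21 with a pseudocount of 5. With the transgenic floor, medians were -0.38 for the proteasome, 0.27 for collagens, 0.28 for bone, -0.26 for macrophage and -0.36 for neutrophil markers. No paired analysis was possible because each group is 1 library. Depth limits genes under 5 FPKM most, and the spread between pools of larvae is unknown.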

Other observations

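Groups not described above with at least 10 members compared had medians between -0.16 and 0.08 on the log2 scale. Of 44 ionocyte genes, the ion-transporting cells of larval skin, 29 lay below 0 (median -0.08), with gcm2, the regulator of acid-secreting ionocytes, at 5.90, 2.51 and 7.39 FPKM in control, knockout and transgenic larvae and the ammonia channel gene rhcgb at 20.03, 14.5 and 20.3. Bsnd, a chloride channel subunit, was listed at 0 in control and stood at 1.33 FPKM in the knockout, in a direction that the floor fixed. Renal tubule genes were evenly divided (13 of 26 above 0). Slc22a6l, an organic anion carrier, stood at 11.8, 7.50 and 9.94 FPKM, and slc20a1b, a phosphate carrier, at 56.2, 37.3 and 66.0. Of 42 endothelial genes 24 lay below 0, with egfl7, a secreted vessel protein, at 5.46, 2.27 and 3.21 FPKM and the flow-responsive klf2a at 68.0, 50.01 and 54.3. Heart genes had 13 of 21 below 0 (median -0.12), and the myosin gene vmhc stood at 23.8 and 20.6 FPKM. Hair cell genes had 14 of 25 below 0, with the otoferlin gene otofa at 5.04, 3.63 and 2.92 FPKM. In the olfactory and taste list 81 of 90 genes had no knockout value, and the olfactory marker ompa stood at 9.50 and 7.86 FPKM.

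Among hormones, 20 of 33 islet and gut genes lay above 0, with the glucagon gene gcga at 4.27, 8.08 and 41.5 FPKM, an order of control, knockout and transgenic. Iron genes beside hamp were divided. The reductase gene cybrd1 stood at 7.16, 3.65 and 6.31 FPKM, and 16 of 25 members lay below 0 (median -0.03). Annexins had 8 of 15 above 0, with anxa1a, a mediator that damps inflammation, at 126, 199.7 and 308 FPKM. Prostaglandin and leukotriene genes had 14 of 22 below 0 (median -0.16), with the cyclooxygenase gene ptgs2a at 13.9, 11.6 and 41.3 FPKM. Clock activators and outputs had 20 of 27 below 0 (median -0.09), with tefb, a light- and clock-driven factor, at 103, 78.0 and 74.95 FPKM. Histone genes had 8 of 13 above 0 (median 0.01). The oocyte list had 1 gene compared, ddx4, at 0.76 and 1.2 FPKM, in a direction that the floor fixed.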
